A study of Mus musculus with 7 samples.

Results

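Long noncoding RNA (lncRNA) genes that stand far from any protein-coding gene were examined for the histone mark H3K4me1 in single mouse zygotes. A gene was taken where RefSeq lists it on an autosome as lncRNA, where it is 5 kb or longer, and where it lies 50 kb or more from every protein-coding gene. This rule gave 2298 genes of 12408 autosomal lncRNA genes, of which 8284 are 5 kb or longer. Of the 2298 genes, 23 are listed before the first fragment of their chromosome and have no level, so that 2275 were measured. The rule itself uses no measured level, but it was chosen with earlier results of these data known.

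The study read histone marks by CUT&Tag, an assay in which an antibody directs the Tn5 transposase to marked chromatin, together with RNA of the same single embryo. Its 7 samples comprise 2 batches for H3K27me3 with 1 RNA sample and 2 batches for H3K4me1 with 2 RNA samples. Only H3K4me1 is described, since the H3K27me3 and RNA data were not used here. Donor females of the H3K4me1 batches received 5 IU of pregnant mare serum gonadotropin and, after 46 to 48 h, 5 IU of human chorionic gonadotropin, and zygotes were taken at 23 after the second injection, for which the labels state no unit. No genotype, age or further treatment is given for the H3K4me1 samples, and no contrast between treatments was made. Each batch consisted of the zygotes of 1 female, with cumulus cells and zona pellucida removed. Both batches stand pooled in 1 table of fragments. Its libraries are named 4 or 5 with a cell number, and nothing in the labels ties either number to a batch. The 14 libraries of 5000 or more fragments, 3 named 4 and 11 named 5, held 1404305 fragments, from 7106 to 197312 each, and 2 sparser libraries were left out. The table is 1 pooled sample, so no test between samples exists, and library values describe single zygotes of up to 2 females.

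H3K4me1, monomethylation of lysine 4 on histone H3, is laid down by the MLL3 and MLL4 methyltransferases and is best known at enhancers and along the flanks of active promoters. LncRNA genes are transcribed by RNA polymerase II into long RNAs without a known protein product, and some isolated loci of this kind border enhancers or host microRNAs. In the zygote, the sperm and egg genomes are reorganised in separate pronuclei before the main wave of transcription from the embryo's own genome begins.

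Few promoters of these genes were CpG-rich. RefSeq start sites were available for 1822 of the 2275 genes. Among their 2265 promoters, 2.25% were CpG-rich (GC content of 50% or more and an observed-to-expected CpG ratio of 0.6 or more, over 250 bases before and 50 after the start), against 33.5% of 32851 promoters of all kinds and 44.6% of 1637 promoters of isolated protein-coding genes. Among 2925 promoters of lncRNA genes that lie apart from coding genes by less than 50 kb, 9.85% were CpG-rich. The median GC content was 45.3%, against 48.3% for these nearer lncRNA genes and 52.7% over all promoters. The promoters shown belong to members with a very high level (Gm39267 and Gm32307), with few or no fragments (Gm5524 and LOC108169027), and with a CpG-rich start (5730522E02Rik, one of the longest members, and Lncpint). Each is written 5′ to 3′ on the strand of the gene, from RefSeq on GRCm38.p6, with every CG pair in capitals. They span chr8:120867572-120867871 on the minus strand for Gm39267, chr14:25199070-25199369 (minus) for Gm32307, chr1:27883796-27884095 (plus) for Gm5524, chr5:11747462-11747761 (minus) for LOC108169027, chr11:26210527-26210826 (minus) for 5730522E02Rik and chr6:31218425-31218724 (minus) for Lncpint.
Gm39267: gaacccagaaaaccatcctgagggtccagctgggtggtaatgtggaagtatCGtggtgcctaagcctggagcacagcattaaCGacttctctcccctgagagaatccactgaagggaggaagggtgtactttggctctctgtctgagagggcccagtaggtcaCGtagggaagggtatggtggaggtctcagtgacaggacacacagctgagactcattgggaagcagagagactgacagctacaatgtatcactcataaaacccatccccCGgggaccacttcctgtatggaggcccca
Gm32307: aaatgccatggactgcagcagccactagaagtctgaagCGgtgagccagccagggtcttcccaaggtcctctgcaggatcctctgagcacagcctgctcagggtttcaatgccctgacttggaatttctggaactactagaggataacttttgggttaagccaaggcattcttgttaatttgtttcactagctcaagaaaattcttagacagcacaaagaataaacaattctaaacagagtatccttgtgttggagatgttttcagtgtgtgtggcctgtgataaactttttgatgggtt
Gm5524: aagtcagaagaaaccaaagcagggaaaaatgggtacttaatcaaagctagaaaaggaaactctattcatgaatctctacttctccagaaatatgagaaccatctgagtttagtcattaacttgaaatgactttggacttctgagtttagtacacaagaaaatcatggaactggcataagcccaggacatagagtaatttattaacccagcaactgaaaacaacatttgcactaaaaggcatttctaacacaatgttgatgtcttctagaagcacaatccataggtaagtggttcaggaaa
LOC108169027: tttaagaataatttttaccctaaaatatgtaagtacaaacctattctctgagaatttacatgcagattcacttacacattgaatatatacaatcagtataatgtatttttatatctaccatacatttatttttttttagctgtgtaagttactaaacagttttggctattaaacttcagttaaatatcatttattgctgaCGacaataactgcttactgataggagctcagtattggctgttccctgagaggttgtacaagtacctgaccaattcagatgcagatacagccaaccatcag
5730522E02Rik: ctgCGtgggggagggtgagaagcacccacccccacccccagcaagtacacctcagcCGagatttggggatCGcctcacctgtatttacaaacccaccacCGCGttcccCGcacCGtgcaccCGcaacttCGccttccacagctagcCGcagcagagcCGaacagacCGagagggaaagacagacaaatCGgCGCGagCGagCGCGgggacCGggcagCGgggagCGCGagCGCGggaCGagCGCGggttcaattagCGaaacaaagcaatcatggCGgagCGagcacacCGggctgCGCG
Lncpint: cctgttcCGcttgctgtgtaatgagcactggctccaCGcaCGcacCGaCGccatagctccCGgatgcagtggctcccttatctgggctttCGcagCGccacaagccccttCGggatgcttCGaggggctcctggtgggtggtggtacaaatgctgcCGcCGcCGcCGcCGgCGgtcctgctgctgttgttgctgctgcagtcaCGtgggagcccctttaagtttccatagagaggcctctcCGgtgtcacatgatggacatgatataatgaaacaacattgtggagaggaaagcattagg
The promoter of Gm39267 holds 4 CG pairs at 54.0% GC, and 10 fragments lay within 2.5 kb of its start where 2.81 were expected from the autosomal mean. Gm32307 holds 1 CG pair at 44.3% GC, with 12 fragments near its start. Gm5524 has no CG pair at 36.0% GC, LOC108169027 has 1 at 31.3% GC, and neither had a fragment within 2.5 kb. The high and the low genes were chosen by their level in windows that include this stretch, so these counts follow in part from the choice. Of the 2 CpG-rich promoters, 5730522E02Rik holds 33 CG pairs at 65.3% GC and had 0 fragments near its start. Lncpint holds 18 at 58.7% GC and had 2. With so few fragments expected, neither count can be told from the average. With 2.81 expected, 0 fragments allow a level of up to 1.07 by the count of 3 fragments, and the exact interval reaches higher.

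Distant lncRNA genes held fewer H3K4me1 fragments than the autosomal average, yet slightly more than the intergenic sequence beside them. A level is the number of fragments per base over the autosomal mean of 5.62 fragments per 10 kb, counted in a window that reaches 2.5 kb beyond both ends of the gene, so that 1 is the average. Summed over 84.5 Mb, the genes had a level of 0.946 (95% interval 0.937 to 0.954) from 44925 fragments. The flank of a gene is the same number of bases of the nearest sequence outside all annotated genes, and the flanks together had a level of 0.898 (0.889 to 0.907). The genes thus stood 1.05 times (1.04 to 1.07) above their flanks. Intervals are exact and cover counting error only. No control library was used here, so how much of a level comes from the mark is not known.

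The small difference from the flanks had the same direction in every library. Across the 14 libraries the ratio of genes to flanks ran from 1.01 to 1.25 with a median of 1.06, and its interval lay above 1 in 8 of them. The level of the genes ran from 0.904 to 1.03, below 1 in 11 of 14 libraries, and that of the flanks from 0.824 to 0.945, below 1 in 14 of 14. Libraries named 4 gave a ratio of 1.04 (1.01 to 1.08) and libraries named 5 a ratio of 1.05 (1.04 to 1.07). When other annotated genes were kept in the flank, the ratio was 1.02.

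**Figure D1:**
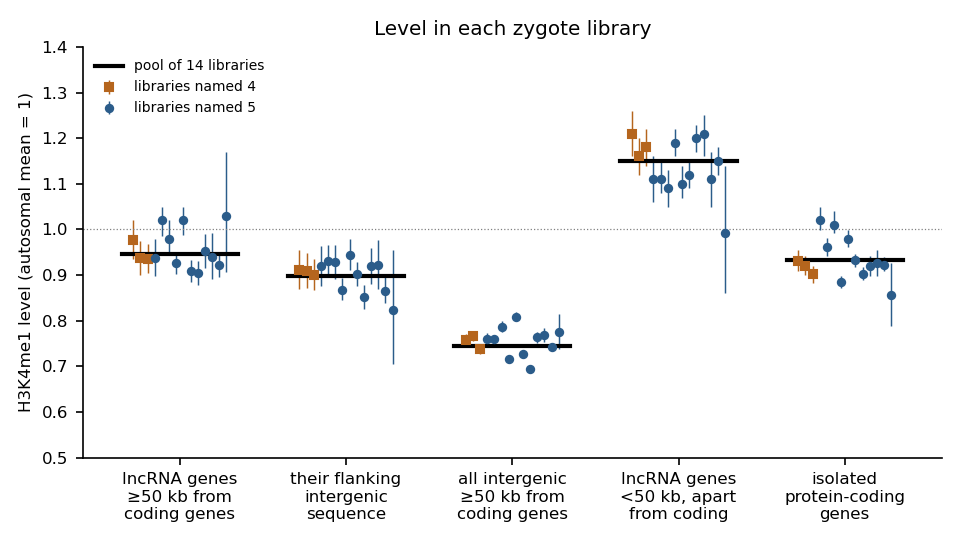
H3K4me1 level (vertical axis, autosomal mean of 1, axis starting at 0.5) in each of 14 zygote libraries for the distant lncRNA genes, their flanks, all distant intergenic sequence, lncRNA genes nearer to coding genes and isolated coding genes. Points are libraries with 95% counting intervals, squares those named 4 and circles those named 5, and black lines the pool. The distant lncRNA genes (0.946) lie between their flanks (0.898) and the nearer lncRNA genes (1.15).

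Compared with other kinds of sequence, these genes were closer in level to isolated protein-coding genes than to other lncRNA genes. LncRNA genes of the same minimum length that lie apart from coding genes by less than 50 kb had a level of 1.15 (1.14 to 1.16, 2955 genes), and those that overlap a coding gene 1.18 (1.17 to 1.19, 3010 genes). The distant genes stood at 0.821 times (0.810 to 0.832) the nearer ones, with the interval below 1 in 13 of 14 libraries. Isolated protein-coding genes, 5 kb or longer and 50 kb or more from every other coding gene, had 0.933 (0.928 to 0.938, 1641 genes). The ratio of distant lncRNA genes to these coding genes was 1.01 (1.00 to 1.02), from 0.916 to 1.21 over libraries and above 1 in 10 of 14. In summed level, isolated coding genes also exceeded their own flanks by a like factor, 1.06 (1.05 to 1.07), and nearer lncRNA genes by 1.03 (1.02 to 1.04).

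The flanks themselves had a higher level than intergenic sequence far from coding genes. All intergenic sequence 50 kb or more from coding genes, 694 Mb in total, had a level of 0.745 (0.743 to 0.748). The lncRNA genes stood 1.27 times (1.26 to 1.28) above it, with the interval above 1 in 14 of 14 libraries, and their flanks stood 1.20 times (1.19 to 1.22) above it, with the interval above 1 in 13. Most of the excess over distant intergenic sequence was therefore shared with the sequence next to the gene. Genes and flanks were not matched to this intergenic sequence in distance from coding genes, and a flank could reach within 50 kb of one. The flank level fell from 1.07 for genes at 50 to 100 kb from a coding gene to 0.583 for those at 500 kb or more. Fragments in the genes had a median length of 324 bp, and those in the flanks 325 bp. Fragments under 150 bp made up 7.47% (7.23 to 7.72) in the genes and 7.13% (6.87 to 7.39) in the flanks. Bases that were not sequenced, or to which reads cannot be assigned, count among the bases of all these kinds of sequence. Without runs of 20 kb or longer that hold no fragment, the level of the genes was 0.944 and the ratio to flanks 1.06.

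Single genes differed widely among themselves. The median level of the 2275 genes was 0.975, with quartiles of 0.642 and 1.41, against a median of 1.11 over 8240 autosomal lncRNA genes and 1.26 over 16044 autosomal coding genes of the same minimum length. The genes ran from 5.0 to 1284 kb with a median of 17.7 kb, and a gene held 0 to 390 fragments with a median of 14, from a median of 8 libraries. The variance of the fragment counts was 5.75 times that of counting error alone. Overlapping genes share fragments, since the 2275 windows form 2017 separate stretches.

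Counted by gene, 354 of 2275 (15.6%) had an interval above 1, and 366 (16.1%) an interval below 1. Over all 8240 autosomal lncRNA genes these shares were 20% and 9.16%, and over isolated coding genes 20.5% and 23.4%. Distant lncRNA genes thus had an interval below 1 more often than lncRNA genes as a whole, in counts that were not tested. Against the flank, 138 of 2273 (6.07%) had a ratio with an interval above 1 and 87 (3.83%) an interval below 1. The shares over all lncRNA genes were close to these, at 6.99% and 4.16%. Over isolated coding genes, which are longer and give more fragments per gene, they were 15.7% and 6.43%. Among genes with 10 or more expected fragments, distant lncRNA genes had 6.19% and 4.45% and isolated coding genes 17.5% and 7.03%. The part of gene length in this difference was not tested. The median ratio of a distant lncRNA gene to its flank was 1.00, so that the summed excess was not seen in the typical gene. This median was 1.00 for nearer lncRNA genes as well, but 1.11 for those that overlap a coding gene and 1.08 for isolated coding genes. By length, the summed ratio was 1.10 (1.06 to 1.14) for genes of 10 to 20 kb and 1.00 (0.976 to 1.03) for those of 100 kb or longer.

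The level of a distant lncRNA gene rose with the number of protein-coding genes around it. Genes with 0 coding genes within 500 kb had a summed level of 0.647 (0.631 to 0.663, 306 genes), those with 3 to 5 had 1.04 (1.02 to 1.05, 658 genes), and those with 11 or more had 1.42 (1.37 to 1.47, 179 genes). The last exceeded the first 2.20 times (2.11 to 2.29), and did so in 13 of the 13 libraries above 20000 fragments, by 1.93 to 2.72 times. Their flanks rose alongside, from 0.609 (0.593 to 0.625) to 1.33 (1.29 to 1.38). The ratio of gene to flank stayed between 1.03 and 1.07 in all 5 groups.

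Distance from the nearest coding gene gave the same picture. The level was 1.12 (1.10 to 1.13) at 50 to 100 kb, 1.02 (0.999 to 1.03) at 100 to 200 kb, 0.880 (0.865 to 0.895) at 200 to 500 kb and 0.594 (0.575 to 0.613) at 500 kb or more. LncRNA genes nearer than this differed little from one another, with 1.16 (1.15 to 1.17) at 10 to 50 kb and 1.14 (1.13 to 1.16) at less than 10 kb. Of the 215 genes at 500 kb or more, 100 had an interval below 1 and 4 an interval above 1. Over all 8240 lncRNA genes the shares were 9.16% and 20%. Around the limit of the rule, genes at 50 to 55 kb had a level of 1.28 (109 genes) and genes at 45 to 50 kb 1.07 (130 genes). Around the length limit, genes of 5 to 6 kb had 1.14 (144 genes) and those of 4 to 5 kb at the same distances 1.21 (160 genes).

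**Figure D2:**
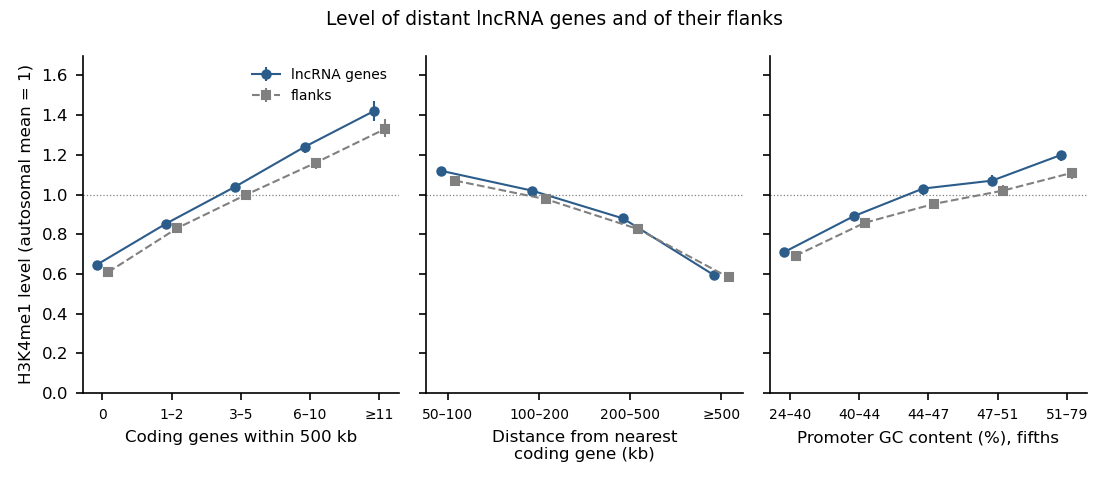
Summed H3K4me1 level (vertical axis, autosomal mean of 1) of distant lncRNA genes (circles) and of their flanks (squares), by coding genes within 500 kb, by distance from the nearest coding gene in kb and by promoter GC content in percent, in 5 groups of like size; bars are 95% counting intervals. Genes and flanks move together, from 0.647 and 0.609 with 0 coding genes nearby to 1.42 and 1.33 with 11 or more.

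Promoter base content moved with the level as well. In 5 groups of the 1822 genes by promoter GC content, the summed level went from 0.711 (0.694 to 0.729) in the lowest to 1.20 (1.17 to 1.22) in the highest, and the flanks from 0.692 to 1.11. The highest group exceeded the lowest in 13 of 13 libraries, by 1.43 to 1.90 times. Both gradients appeared within one another. Among genes with 0 coding genes within 500 kb, those with promoter GC content under the median had 0.629 (0.606 to 0.652) and those at or above it 0.696 (0.664 to 0.729). Among genes with 11 or more, the values were 1.16 (1.07 to 1.25) and 1.51 (1.45 to 1.58). Whether base content affects how fragments are recovered was not tested. The 50 genes with a CpG-rich promoter had a level of 1.09 (1.04 to 1.14), above 0.956 (0.946 to 0.966) for the others and below the group of highest GC content.

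Short genes had higher levels than long ones. The level was 1.22 (1.19 to 1.25) for 599 genes of 5 to 10 kb, 0.956 (0.939 to 0.974) for 626 genes of 20 to 50 kb and 0.776 (0.761 to 0.791) for 124 genes of 100 kb or longer. The shortest class exceeded the longest in 13 of 13 libraries, by 1.42 to 1.92 times, and flanks fell from 1.15 to 0.774. The order was the same within groups of coding gene number, with distance and base content not matched. With 0 coding genes within 500 kb, genes under 20 kb had 0.818 (0.766 to 0.873) and longer genes 0.627 (0.611 to 0.644). With 11 or more, genes under 20 kb had 1.57 (1.50 to 1.64) and longer ones 1.29 (1.22 to 1.36).

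The gene start was the part of the gene with the highest level. Over the 1822 genes with a known strand, a level of 1.17 (1.13 to 1.21) was found in the first 2.5 kb, and sequence outside genes at 10 to 50 kb before the start had 0.994 (0.984 to 1.01). The ratio of these was 1.17 (1.13 to 1.22), above 1 in 13 of 13 libraries, from 1.05 to 1.32. The 2.5 kb just before the start had 1.07 (1.02 to 1.11), and the last 2.5 kb of the gene had 1.08 (1.04 to 1.12). The start exceeded the end of the gene 1.08 times (1.02 to 1.14) and in 11 of 13 libraries.

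Start over end was 1.10 (1.04 to 1.17) in libraries named 5, above 1 in 10 of 10, and 0.984 (0.867 to 1.12) in libraries named 4, above 1 in 1 of 3, with intervals that overlap. Whether the sets differ was not tested. In libraries named 5 the first 2.5 kb had 1.19 (1.14 to 1.23) and the last 2.5 kb 1.08 (1.03 to 1.12), while libraries named 4 had 1.07 (0.981 to 1.17) and 1.09 (0.998 to 1.19), with intervals that overlap those of libraries named 5. Isolated coding genes had a smaller excess at the start, whose interval holds 1 and does not overlap that of the lncRNA genes. Their first 2.5 kb had a level of 0.946 (0.901 to 0.992), 1.04 times (0.986 to 1.09) the sequence 10 to 50 kb before the start, and above 1 in 6 of 13 libraries. For nearer lncRNA genes the same ratio was 1.04 (1.00 to 1.07), above 1 in 9 of 13, although their first 2.5 kb had the higher level of 1.22 (1.18 to 1.26). Coding genes carried many more CpG-rich promoters than the lncRNA genes, as given above. Isolated coding genes without one had 0.988 (0.887 to 1.10) in the first 1 kb and 0.900 (0.820 to 0.985) at 1 to 2.5 kb. At 10 to 20 kb before the start they had 0.823 (0.791 to 0.857). Those with one had 0.949, 0.959 and 0.985. Distant lncRNA genes without one had 1.18, 1.16 and 1.02. An excess at the start was thus not limited to lncRNA genes, and the part of promoter type in the difference was not tested.

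**Figure D3:**
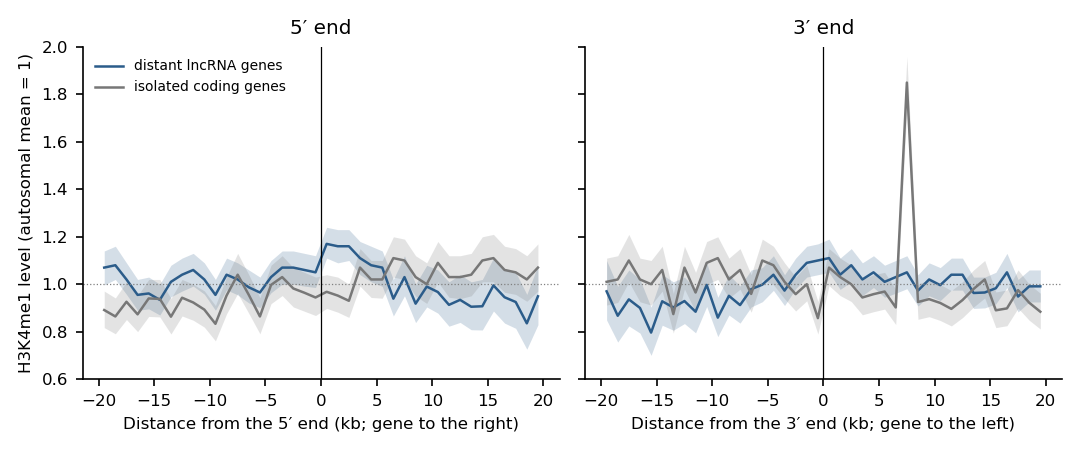
H3K4me1 level (vertical axis, autosomal mean of 1, axis starting at 0.6) in steps of 1 kb around the 5′ end and the 3′ end (horizontal axes, kb) of 1822 distant lncRNA genes (blue) and 1275 isolated coding genes (grey), with shaded 95% counting intervals. Sequence outside the gene leaves out other genes, and steps inside hold only the genes long enough to reach them. The lncRNA genes reach 1.17 in the first 1 kb of the gene. The single high grey step beyond the 3′ end, at 1.85, holds 1182 fragments.

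Levels found in one set of libraries returned in the other. The 1438 genes with 10 or more expected fragments were ranked in libraries named 5 and divided into 5 groups of like size, and levels were then read in libraries named 4. Those were 0.543 (0.509 to 0.579), 0.695 (0.657 to 0.734), 0.886 (0.839 to 0.934), 1.14 (1.08 to 1.19) and 1.56 (1.49 to 1.64) from the lowest to the highest group. In libraries named 5 the same groups had 0.435 to 1.71, values fixed by the ranking. The flanks in libraries named 4 rose over these groups too, from 0.605 to 1.41. In the lowest group the flank interval was 0.568 to 0.644 and in the highest 1.34 to 1.49, so that genes lay slightly below their flanks at the low end and above them at the high end, with intervals that touch. Across the 1438 genes, Spearman's rho was 0.457 between the 2 sets and 0.639 between gene and flank, where gene and flank share libraries and overlapping genes share fragments. The intervals of the 2 sets did not overlap in a few of the 2275 genes, 13 higher in libraries named 4 and 5 higher in those named 5. The same count was not made over all lncRNA genes, so whether these numbers are usual is not known.

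The highest members were uncharacterised loci except for 1 microRNA host. Named by level among genes with 10 or more expected fragments from 5 or more libraries, they describe the top of the range and were not tested. Gm39267 on chromosome 8 had 37 fragments where 11.9 were expected, a level of 3.11 (2.19 to 4.29), and its libraries ran from 0 over a median of 2.89 to 6.71. Its flank had 1.35, and libraries named 4 and named 5 had 3.30 and 3.07. Up to 5 of its fragments from a single library overlapped at one base. Gm32307 on chromosome 14 had 3.06 (2.09 to 4.31), with a median library of 3.00, over a flank of 1.05. Its neighbour Gm32379, whose window overlaps it, had 3.19 over a flank of 0.944. Both were high in libraries named 5, at 3.49 and 3.45, while libraries named 4 gave 1.07 (0.130 to 3.87) and 1.99 (0.410 to 5.81), with wide intervals.

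The other high members lay in varied surroundings. Gm33033 and Gm32845, which overlap each other on chromosome 2, had 2.85 and 2.75. Gm29483, with 22 coding genes within 500 kb, had 2.73 (1.88 to 3.83), and Gm31055, with 1, had 2.82 (1.95 to 3.94). On chromosome 13, Gm34439 had 2.73 over a flank of 1.81, and 4921525O09Rik had 2.69 over a flank of 2.52, so that the latter did not stand out from its surroundings. Mir1a-1hg, the host of the muscle microRNA miR-1, likewise had 2.69 (1.84 to 3.79) over a flank of 2.85. Gm36367 on chromosome 9 had 2.63 over a flank of 0.789, a ratio of 3.33 (1.54 to 7.98).

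At the low end, 14 of 2275 genes had no fragment, beside 41 of all 8240 lncRNA genes, a like share. Gm5524 on chromosome 1, 874 kb from the nearest coding gene, had 0 fragments where 13.0 were expected. This allows a level of up to 0.231 by the count of 3 fragments, and the exact interval reaches 0.284. Gm30770 on chromosome 11, 644 kb away, had 0 where 10.7 were expected, with a limit of 0.281 by the same count and 0.345 by the exact interval. The flanks of both were low as well, at 0.308 and 0.468. Gm33847 and LOC108169027, neighbours on chromosome 5, had 1 fragment of 12.1 expected and 3 of 35.7, and LOC115489968 on chromosome 4 had 1 of 13.5. Gm32846 on chromosome 7 is the largest of the low genes, with 8 fragments of 76.4 expected, a level of 0.105 (0.0452 to 0.206) over a flank of 0.432. It lies within 500 kb of 10 coding genes, so a low level was not limited to gene deserts. Whether reads can be assigned to these loci was not tested, because no genome sequence was used here.

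Single genes that stood apart from their flanks are best read with the fragments behind them. Gm46796 on chromosome 3 had a level of 12.0 (9.72 to 14.7) over a flank of 0.512, from 94 fragments of all 14 libraries, which ran from 3.19 over a median of 12.4 to 204, the last in the library of 7106 fragments. Up to 10 fragments of a single library overlapped at one base there, and it was the 1 member that touched a 10 kb bin above 10 times the autosomal mean. In 34 members more than 4 fragments of a single library overlapped at one base. Gm40016 on chromosome 11 had 2.51 (1.67 to 3.63) over a flank of 0.359, a ratio of 7.0 (2.45 to 27.5), from 13 libraries with no more than 2 fragments of a single one at any base. Gm34916 on chromosome 17 had 1.93 over 0.594, a ratio of 3.25 (1.43 to 8.31).

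Lower than their flanks were Gm31693, at 0.850 beside a flank of 7.41, and Gm46144, at 1.02 beside 3.19. For both the flank was high and the gene near average. In Gm41317 and Gm6639 the gene itself was low, with 0.208 (0.108 to 0.363) over 0.641 and 0.264 (0.132 to 0.473) over 0.817. Gm32846, described among the low genes, had a ratio of 0.242 (0.0967 to 0.535).

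**Figure D4:**
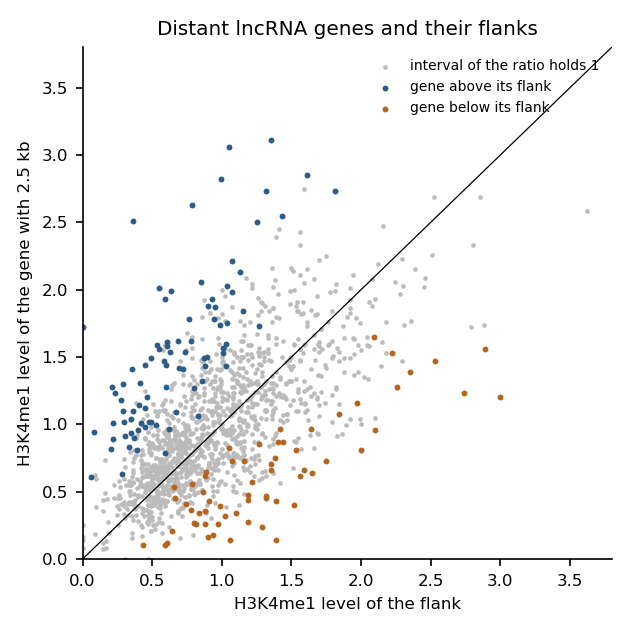
H3K4me1 level of the gene window (vertical axis) against the level of its flank (horizontal axis), both with the autosomal mean of 1, for the 1438 distant lncRNA genes with 10 or more expected fragments. Blue and orange points are genes whose ratio to the flank has a 95% interval above or below 1, 89 and 64 genes, and the line marks equality. These are 6.19% and 4.45%, beside 7.85% and 5.21% of all lncRNA genes with 10 or more expected fragments. Most genes scatter along the line (Spearman's rho 0.639).

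The longest members were low over large spans. Gm32647 on chromosome 7, 1284 kb long and 845 kb from the nearest coding gene, had a level of 0.538 (0.486 to 0.595) and a flank of 0.654, a ratio of 0.823 (0.718 to 0.943). 1700019L22Rik on chromosome 8 had 0.555 (0.489 to 0.628), and Gm30340 on chromosome 3 had 0.547 (0.462 to 0.643), each close to its flank of 0.515 and 0.558. 5730522E02Rik on chromosome 11, whose CpG-rich promoter is printed above, had 0.785 (0.693 to 0.885) and stood 1.33 times (1.10 to 1.60) above its flank.

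Few lncRNAs with a known role meet the rule. Of 11 imprinted lncRNA symbols 1 is a member, Mirg, the microRNA-bearing gene at the end of the Dlk1-Dio3 imprinted domain. It had 1.10 (0.566 to 1.91) over a flank of 0.365, a ratio of 3.00 (0.909 to 12.8) whose interval holds 1. Of 29 symbols linked to the nervous system and development 3 are members. Lncpint, a p53-induced transcript, had 1.79 (1.50 to 2.13), and Tunar, which acts in pluripotency and neural differentiation, had 1.53 (1.12 to 2.05). Rmst, a partner of SOX2 in neurogenesis, had 0.704 (0.490 to 0.979). None of these 3 stood apart from its flank, with ratios of 0.916, 0.703 and 0.897, and each interval held 1. Over the libraries, Lncpint ran from 0 over a median of 1.59 to 4.29.

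Of 20 symbols of pluripotency-associated transcripts 5 are members, with a median level of 1.35. Platr26 had 2.15 (1.31 to 3.32) over a flank of 0.538, a ratio of 4.00 (1.46 to 13.6), all from libraries named 5. Libraries named 4 held none of its 20 fragments, where the interval reaches 2.22. Lncenc1, a transcript of embryonic stem cells, had 1.31 (0.975 to 1.73), Platr22 1.39 (0.917 to 2.02) and Platr4 1.35 (0.584 to 2.67). Platr30, with 40 coding genes within 500 kb, had 0.391 (0.107 to 1.00) from 4 fragments. Only Platr26 of the 5 had an interval above 1, and none had one below, beside 20% and 9.16% of all lncRNA genes.

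Of 17 symbols of microRNA host genes 6 are members, with a median level of 0.772, 1 with an interval above 1 and 2 below, beside 20% and 9.16% of all lncRNA genes. Mir1a-1hg is the one above. Mir99ahg, whose measured span does not include the miR-99a gene it is named for, had 0.509 (0.395 to 0.647), and Mir217hg had 0.340 (0.110 to 0.794). Mir100hg, host of miR-100 and let-7a-2, had 0.840 (0.693 to 1.01). Mir124a-1hg and Mir124-2hg, which carry genes of the neuronal miR-124, had 1.15 (0.462 to 2.37) and 0.705 (0.259 to 1.53). For Mir124-2hg the 2 sets of libraries lay apart, with 3.29 (1.07 to 7.69) in those named 4 and 0.143 (0.00362 to 0.796) in those named 5, from 6 fragments in all. By position in the RefSeq annotation, 24 members hold 47 microRNA genes. Their summed level was 0.920 (0.869 to 0.974) and that of their flanks 0.783 (0.735 to 0.833), a ratio of 1.18 (1.08 to 1.28). Of these 24, 2 had a ratio with an interval above 1, beside 6.99% of all lncRNA genes, and both hold a single microRNA gene: 2610307P16Rik on chromosome 13, at 1.59 times (1.32 to 1.91), and 5730522E02Rik. These 2 genes held 571 of the 1194 fragments and carried the group value, since the other 22 had a ratio of 0.997 (0.890 to 1.12), a split made after the values were seen. A230057D06Rik on chromosome 7, which holds 7 microRNA genes of the Mir344 family, had 0.502 (0.387 to 0.641).

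Among 13 further members with known names, picked by symbol after their values could be seen, levels followed no single direction. Morrbid, which restrains Bcl2l11 in myeloid cells, had 1.82 (1.53 to 2.15) from 139 fragments, and its libraries ran from 0 over a median of 1.69 to 2.76. Mirt1 had 1.99 (1.36 to 2.81), Redrum, a transcript of red cell precursors, 1.53 (1.04 to 2.17), and Ifngas1, a neighbour and regulator of the interferon gamma gene, 1.41 (1.03 to 1.87). Ipw, an imprinted transcript of the Prader-Willi region, was low at 0.357 (0.190 to 0.611). Of the genes just named, Ifngas1 alone stood above its flank, at 1.96 times (1.17 to 3.35).

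The level intervals of the other 8 held 1. Rubie, a transcript of the inner ear, had 1.85 (0.984 to 3.16) over a flank of 0.284. Its ratio of 6.50 (1.47 to 59.3) lay above 1 but rests on 2 flank fragments. Mexis, a macrophage transcript near Abca1, had 1.79 (0.981 to 3.01), and Ptgs2os2, known as lincRNA-Cox2, 1.47 (0.671 to 2.79). Celrr had 1.20, but libraries named 4 gave 3.11 (1.60 to 5.42) against 0.786 (0.430 to 1.32) from the others, intervals that do not overlap, and up to 5 fragments of a single library overlapped at one base. Lncbate6 of brown fat, Dubr of muscle cells, Pinc of the mammary gland, and Wincr1 had 0.993, 0.968, 0.840 and 0.905.

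Most members have no descriptive name: 1863 of 2275 carry a Gm number, 337 a Rik clone name and 32 a LOC number. The 43 with another symbol had a level of 1.16 (1.10 to 1.22) and flanks of 1.18 (1.12 to 1.25), against 0.942 (0.933 to 0.952) and 0.902 for the Gm genes. Members with a curated RefSeq transcript had 0.919 (0.903 to 0.935, 578 genes), and those with only predicted transcripts 0.961 (0.950 to 0.971, 1697 genes). By chromosome, levels ran from 0.822 (0.793 to 0.853, 142 genes) on chromosome 4 to 1.13 (1.07 to 1.19, 72 genes) on chromosome 17. The ratio to flanks was lowest on chromosome 5, at 0.941 (0.879 to 1.01), and highest on chromosome 6, at 1.19 (1.11 to 1.27). On 3 of the 19 autosomes, chromosomes 4, 5 and 7, the ratio was below 1, each with an interval that holds 1.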

How the data were processed

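H3K4me1 was read in single zygotes. The deposited table lists 1 fragment per line with its library, and its last column is a count of 1 in every line, so fragments were counted here. Reads were placed on mm10, per the submitters' processing notes. Not given in the sources used here are the aligner, duplicate removal and Tn5 shift. Gene positions and start sites came from RefSeq (GRCm38.p6, the assembly of mm10).

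All libraries with 5000 or more fragments on autosomes, X or Y were pooled, fragments were placed by midpoint, and chromosomes ran from the first to the last fragment. Levels carry exact 95% Poisson intervals, and ratios carry intervals from the Clopper-Pearson interval of the share of fragments. Only counting error is covered, since amplified reads are not independent molecules where no molecular identifiers exist. No p-value was computed. A level near 0 is bounded by 3 fragments, a limit that lies below the upper end of the exact interval.

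The genes and lists were chosen with earlier results of these data known. Named genes are those with the 10 highest and 6 lowest levels (10 or more expected fragments; for the highest, 5 or more libraries), the 5 highest and 5 lowest ratios to the flank (30 or more fragments in gene and flank), the 4 longest, and list members (imprinted, microRNA hosts, pluripotency, nervous system and development). Other named genes were chosen after their values were seen. Counting was tested on simulated fragments. Python 3.11.15, numpy 2.4.6, pandas 2.3.3 and scipy 1.17.1 were used. Alternatives changed the window, the libraries, the rule's limits and the flank.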

Additional observations from a re-analysis of the deposited data

How the results depend on the processing

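No paired analysis was possible because both batches are pooled in 1 table and no comparison between samples was made. The summed level was 0.929 over the gene body alone, 0.954 with 5 kb on each side, 0.988 for genes 25 kb or more from coding genes, 0.877 for 100 kb or more, 0.922 for genes of 10 kb or longer and 0.957 with libraries weighted equally. The median level was 0.870 in libraries named 4 alone, 1.01 at 25 kb or more, 0.908 at 100 kb or more and 0.933 for genes of 10 kb or longer. The ratio to flanks was 1.03 over the gene body alone and 1.02 with other genes kept in the flank, and stayed above 1 under every alternative run. Libraries named 4 alone, which hold fewer fragments, gave 157 genes with an interval above 1 and 78 below, and 32 above and 27 below their flanks. At 100 kb or more, with fewer genes, 184 had an interval above 1. Leaving out each library in turn gave a level of 0.940 to 0.951, a median of 0.970 to 0.985, 324 to 354 genes with an interval above 1, 339 to 372 below, a ratio of 1.05 to 1.06, and 115 to 139 genes above and 77 to 88 below their flanks. The other alternatives moved no summed value or median beyond its interval and no count by over 1.5 times. With about 14 fragments for a median gene, most single genes cannot be told from the average or from their flank at this depth.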
